A study of Mus musculus with 54 samples.

Results

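Hs6st2 and 9 other genes that set the sulfation pattern of heparan sulfate were followed through cortex, striatum and cerebellum of adult mice. They are 10 of the 47069 genes of the count table and were picked by name, with Hs6st2 taken because it stood apart between genotypes in cortex. The genotype contrast in cortex is therefore given for these genes as a description, with no p-value, and nothing is read from calls in it. The same holds for Hs6st2, and for the shares of the Hs6st genes in their family, in every contrast of regions that takes in the cortex. The genotype contrasts in striatum and cerebellum, the levels of the other members across regions, and the comparison of the sexes were not used in that choice.

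The mice were 10 Mbd5+/GT and 8 WT animals aged 8 weeks, and 1 library was made from each of 3 brain regions of each mouse, for 54 libraries. Mbd5+/GT mice carry a gene trap in the second intron of 1 copy of Mbd5, which lowers expression of that copy rather than deleting it, so the model is a heterozygous hypomorph, and their WT littermates carry no trap. Mbd5 encodes a protein with a methyl-CpG-binding domain, and its human counterpart is linked to autism and related disorders. Of the 3 litters, the first gave 3 females of each genotype, litter 2 gave 4 Mbd5+/GT males and 1 WT male, and litter 3 gave 2 females and 1 male that were Mbd5+/GT and 2 females and 2 males that were WT. Levels below are in CPM, the reads of a gene scaled to a common library size (TMM), and a gene was called when its Benjamini-Hochberg adjusted p from edgeR's quasi-likelihood test was under 0.05.

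Heparan sulfate is a sugar chain carried by core proteins such as syndecans and glypicans at the cell surface and in the extracellular matrix, where it binds growth factors, morphogens and synaptic adhesion proteins. The chain is made plain and is then modified in order in the Golgi. The Ndst enzymes replace acetyl groups by sulfate on the amino sugar, Hs2st1 adds sulfate to the uronic acid, and the Hs6st enzymes add sulfate at the 6-O position of the glucosamine. Outside the cell the endosulfatases Sulf1 and Sulf2 remove 6-O sulfate again. The members are therefore writers, and in the case of Sulf1 and Sulf2 erasers, of the same chain.

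Gene counts summed to between 25295973 and 49027399 in each library. Mbd5 itself was 47.7 through 68.0 to 75.6 CPM in WT cortex and 40.6 through 45.8 to 53.0 CPM in Mbd5+/GT cortex. It was lower in Mbd5+/GT mice each time, by log2 fold changes of -0.49 (cortex, edgeR adjusted p = 0.00012), -0.51 (striatum, 9.41e-05) and -0.34 (cerebellum, 0.00912). Some libraries stood apart from their region. The summed level of 7 markers of the labelled region was under 50% of the region's median in 5 of 18 striatum libraries and 2 of 18 cerebellum libraries, all from females, and in none of the 18 cortex libraries. The 2 cerebellum libraries were those of WT mouse M754 and Mbd5+/GT mouse M755, and their Hox genes, which are transcribed in hindbrain and spinal cord, summed to 172 and 583 CPM. Hox sums of 64.7 and 66.8 CPM were also seen in the cerebellum libraries of mice M756 and M761, and the other cerebellum libraries had at most 5.2 CPM. The edgeR fits were also run without the libraries low in their own markers, and values from those fits are given in places. The family shares and the correlations with Hs6st2 include these libraries throughout.

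Hs6st2 (ENSMUSG00000062184) lies on the minus strand of chromosome X of GRCm38, from 51387212 to 51681856. Its relatives Hs6st1 (chromosome 1, 36068400 to 36106446) and Hs6st3 (chromosome 14, 119138341 to 119869815) lie on autosomes and on the plus strand. The outermost RefSeq start of Hs6st2 lies inside the gene as GENCODE draws it. Mbd5 belongs to a protein family named for binding to methylated CpG, although Mbd5 itself is reported not to bind methylated DNA in the test tube. As plain sequence context for the gene the results turn on, the 250 bases before the annotated RefSeq starts of Hs6st2 and Hs6st1 are shown with each CG in capitals. They are written 5′ to 3′ on the gene's strand, from GRCm38.p6. DNA methylation and protein binding were not measured in these data.
Hs6st2, upstream start, chrX:51681603-51681852, minus strand: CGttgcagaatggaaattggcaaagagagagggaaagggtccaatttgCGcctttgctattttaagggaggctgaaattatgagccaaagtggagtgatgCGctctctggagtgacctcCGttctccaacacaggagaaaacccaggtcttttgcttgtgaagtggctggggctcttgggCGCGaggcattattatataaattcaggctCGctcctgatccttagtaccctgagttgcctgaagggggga
Hs6st2, downstream start, chrX:51680478-51680727, minus strand: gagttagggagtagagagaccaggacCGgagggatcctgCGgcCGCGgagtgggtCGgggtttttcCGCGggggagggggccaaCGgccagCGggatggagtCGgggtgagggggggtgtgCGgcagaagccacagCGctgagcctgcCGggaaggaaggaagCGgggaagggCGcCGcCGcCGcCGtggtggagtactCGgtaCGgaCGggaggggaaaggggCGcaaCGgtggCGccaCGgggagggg
Hs6st1, chr1:36068150-36068399, plus strand: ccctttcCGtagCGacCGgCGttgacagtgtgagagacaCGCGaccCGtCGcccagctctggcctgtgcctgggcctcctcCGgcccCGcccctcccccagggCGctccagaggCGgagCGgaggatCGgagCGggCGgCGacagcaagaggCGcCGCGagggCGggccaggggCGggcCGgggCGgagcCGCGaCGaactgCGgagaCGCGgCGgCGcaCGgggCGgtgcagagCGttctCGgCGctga

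Hs6st2 has 2 annotated starts whose upstream sequence differs in CG content. The upstream start holds 7 CG in 250 bases, close to the median of 6 over 32817 RefSeq promoters of the same length, and 46.3% of promoters hold as many. The downstream start holds 26 CG, which 9.6% of promoters reach. Hs6st1 holds 37, which 2.2% of promoters reach, and Hs6st3 holds 36, which 2.6% reach. Among the other members with a sequence in the table, Ndst3 had the fewest CG, with 1 and 3 before its 2 starts. In all, 7 of the 10 members had an entry. These counts describe the letters of the reference only, and gene counts cannot tell which start was used.

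In cortex Hs6st2 was lower in Mbd5+/GT than in WT mice. It ranged from 33.7 through a median of 49.5 to 71.6 CPM in the 8 WT libraries (50.5 ± 13.1, SD) and from 31.1 through 38.2 to 54.9 CPM in the 10 Mbd5+/GT libraries (39.8 ± 7.52). The groups overlapped, with 9 of 10 Mbd5+/GT libraries below the WT mean and 2 below every WT library. The Mbd5+/GT mean was 78.9% of the WT mean. With 4 surrogate variables as covariates the log2 fold change was -0.26 (standard error 0.040), and 0.0107% of 18661 genes were called, Hs6st2 among them. Nothing is read from that call, since this contrast chose the gene. The same difference on the log2 scale was -0.43 in litter 1, -0.56 in litter 2, where a single WT mouse was compared, and -0.27 in litter 3.

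**Figure D1:**
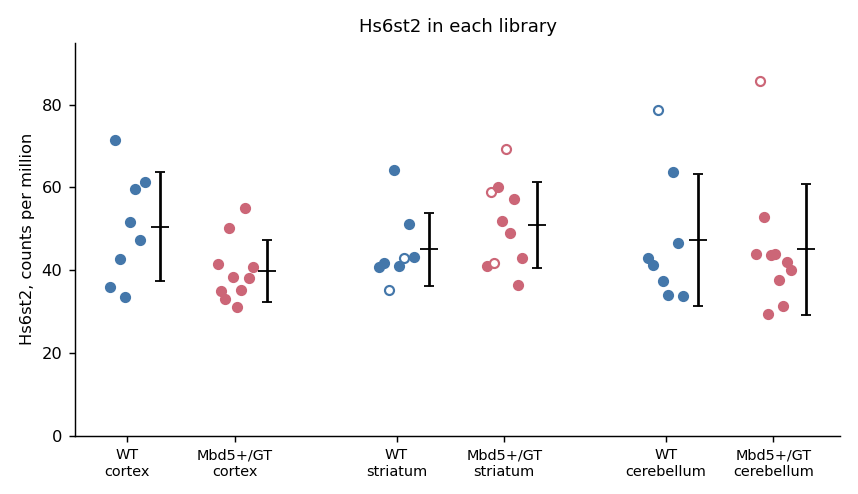
Hs6st2 level in CPM (vertical axis) in each of the 54 libraries, by genotype and region. Blue points are WT and red points Mbd5+/GT libraries, open points are libraries low in the markers of their own region, and the bar beside each group gives the mean and SD. The cortex groups overlap between 33.7 and 54.9, and the highest cerebellum library reaches 85.7.

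The size of the cortex difference moved with the fit. Over the alternative fits the log2 fold change lay between -0.37 and -0.13. Without surrogate variables it was -0.34 (standard error 0.138). Leaving out each of the 18 cortex libraries in turn gave values from -0.33 to -0.17.

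The level of Hs6st2 in cortex moved together with genes of striatal projection neurons, which a cortical dissection can hold in varying amount. The summed level of 7 striatal markers, among them the dopamine receptors Drd1 and Drd2 and the opioid precursor Penk, ranged from 165 to 1841 CPM in WT cortex and from 243 to 1249 CPM in Mbd5+/GT cortex, against 242 to 7699 CPM in WT striatum. The log2 difference of Mbd5+/GT from WT cortex was -0.61 for Drd1, -0.45 for Drd2 and -0.69 for Penk. Of the WT cortex libraries, 4 exceeded 1000 CPM and had 51.6 to 71.6 CPM of Hs6st2 (median 60.5), as did 1 Mbd5+/GT library, with 54.9 CPM. Among libraries at or below 1000 CPM, Hs6st2 ranged from 33.7 to 47.3 CPM in 4 WT mice (median 39.4) and from 31.1 to 50.1 CPM in 9 Mbd5+/GT mice (median 38.1). Without the 5 libraries above 1000 CPM the log2 fold change with 4 surrogate variables was -0.13 (standard error 0.062), beside -0.26 (standard error 0.040) with all cortex libraries. With the striatal marker level as covariate in place of surrogate variables it was -0.21 (standard error 0.124), beside -0.34 (standard error 0.138) with neither. The limit of 1000 CPM was set after seeing the data. In WT striatum itself Hs6st2 ranged from 35.1 through 42.3 to 64.2 CPM. The part of striatal tissue in the difference was not tested. In bulk tissue, fewer cells of a type and less RNA per cell cannot be told apart.

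**Figure D2:**
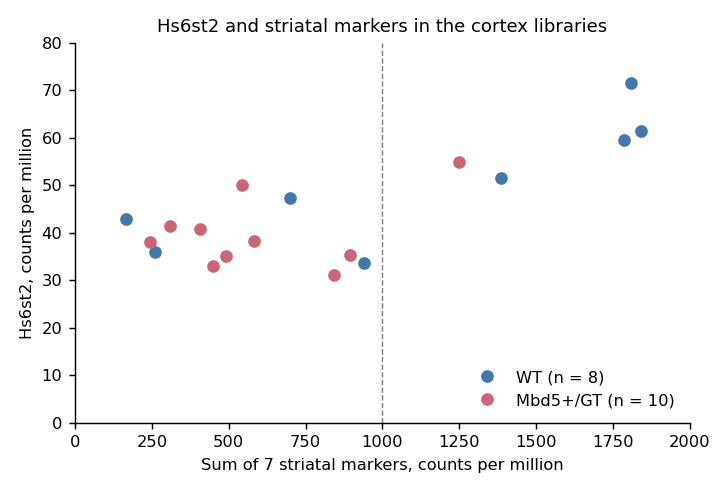
Hs6st2 level (vertical axis, CPM) against the summed level of 7 striatal markers (horizontal axis, CPM) in the 18 cortex libraries, WT in blue and Mbd5+/GT in red. The dashed line marks 1000, and the 5 libraries to its right, 4 of them WT, have Hs6st2 levels of 51.6 to 71.6.

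In striatum and cerebellum the Hs6st2 difference between genotypes did not pass the test. In striatum it ranged from 35.1 through 42.3 to 64.2 CPM in WT and from 36.4 through 50.4 to 69.2 CPM in Mbd5+/GT libraries, so that the groups overlapped nearly entirely. The log2 fold change was 0.11 (standard error 0.087, edgeR adjusted p = 0.834), with an interval of 2 standard errors from -0.07 to 0.28. It was 0.048 without the 5 libraries low in striatal markers, and leaving out single libraries gave values from 0.038 (without Mbd5+/GT mouse M766) to 0.23 (without WT mouse M757), with Hs6st2 called in none of these fits. In cerebellum the range was 33.8 through 42.1 to 78.6 CPM in WT and 29.4 through 42.8 to 85.7 CPM in Mbd5+/GT libraries, and the highest library of each genotype was one of those with Hox counts and few cerebellar markers. There the log2 fold change was -0.01 (standard error 0.060, edgeR adjusted p = 1), with an interval from -0.13 to 0.11. A two-sided exact permutation test on log2 CPM gave p = 0.242 in striatum and p = 0.713 in cerebellum (0.485 and 0.713 adjusted over the 2 tests), and p = 0.233 and p = 0.734 when mice were exchanged within litters only. Within litters the log2 difference was 0.42, 0.08 and 0.07 in striatum and -0.28, 0.15 and 0.29 in cerebellum for litters 1, 2 and 3.

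The genotype effect on Hs6st2 differed by -0.52 (standard error 0.234) for cortex minus striatum and by -0.27 (standard error 0.234) for cortex minus cerebellum on the log2 scale, in a fit of all 54 libraries without surrogate variables. Both contrasts hold the cortex and are descriptions. Between striatum and cerebellum the effect differed by 0.25 (standard error 0.234, edgeR adjusted p = 0.995). No gene was called for a difference between regions in any of the 3 contrasts (0% of 20477), with 865 (4.22%) for cortex minus striatum, 228 (1.11%) for cortex minus cerebellum and 548 (2.68%) for striatum minus cerebellum at an unadjusted p under 0.05, and DESeq2 called 1 gene between cortex and striatum.

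Of the other 9 members none was called between genotypes. Their log2 fold changes lay between -0.12 (Sulf2) and 0.08 (Ndst2) in cortex, between -0.53 (Hs6st3) and 0.13 (Hs2st1) in striatum, where 0.00539% of all genes were called, and between -0.33 (Ndst4) and 0.12 (Hs6st3) in cerebellum, where 0.00551% were called. Counted at an unadjusted p under 0.05, 1 of 10 members in striatum and 0 of 10 in cerebellum passed, against 7.44% and 2.75% of all genes. The member in striatum was Hs2st1, the sole 2-O-sulfotransferase. It ranged from 42.0 through 46.7 to 55.1 CPM in WT and from 48.2 through 51.7 to 67.0 CPM in Mbd5+/GT striatum. The groups overlapped, but every Mbd5+/GT library lay above the WT mean. Its log2 fold change was 0.13 (standard error 0.055, edgeR unadjusted p = 0.0366, adjusted p = 0.643), and 0.07 (standard error 0.0567, adjusted p = 0.865) without the libraries low in striatal markers. The median over the 10 members was -0.04 (cortex), -0.03 (striatum) and -0.0039 (cerebellum), against -0.0042, -0.0099 and -0.0035 over all genes tested. Ndst4 and Sulf1 had the widest errors in striatum, with standard errors of 0.685 and 0.300, and differences of their size could not be detected there.

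**Figure D3:**
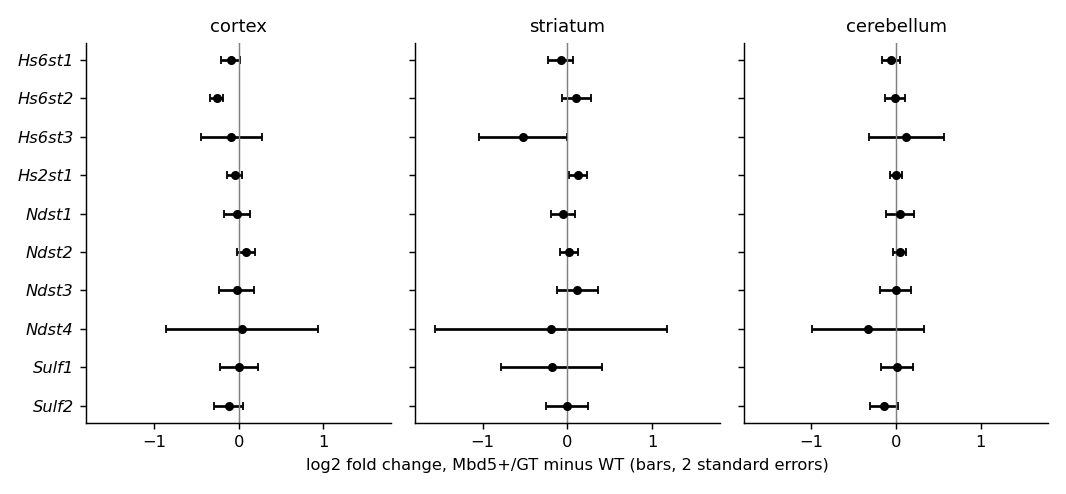
Log2 fold change of Mbd5+/GT against WT mice (horizontal axis) for the 10 members in cortex, striatum and cerebellum, with bars of 2 standard errors. Hs6st2 in cortex is at -0.26, the other 9 members lie between -0.12 and 0.08 there, and the bars of Ndst4 are the widest.

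The other 47 genes of the pathway, from lists of linkage and chain synthesis, 3-O-sulfotransferases, sulfate donor supply, core proteins and breakdown, were examined in the same fits. In cortex 0 of the 45 that passed the filter were called, and in striatum and cerebellum 0 of 46 were called. At an unadjusted p under 0.05, 4 were lower in cortex, 2 lower in striatum and 1 lower in cerebellum, and none was higher, where 4.51%, 3.2% and 1.78% of all genes were lower at that limit.

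Hs6st1 and Hs6st2 each had a similar level from region to region, with Hs6st1 above Hs6st2, and Hs6st3 was highest in cortex. Per kilobase of exon, WT mice had 10.8 ± 0.554, 10.1 ± 1.49 and 10.8 ± 1.12 CPM per kb of Hs6st1 in cortex, striatum and cerebellum (SD, n = 8), 6.47 ± 1.68, 5.77 ± 1.14 and 6.06 ± 2.03 of Hs6st2, and 4.35 ± 2.28, 1.35 ± 1.01 and 0.815 ± 0.702 of Hs6st3. The order Hs6st1, Hs6st2, Hs6st3 was the same in the 3 regions. In cortex the mean of Hs6st2 exceeded that of Hs6st3 by less than the sum of their SDs. The exon length of Hs6st3 in the annotation, 1708 bases, is short and sets its level per kilobase. The order of regions for Hs6st2 was cortex, cerebellum, striatum in WT mice, with log2 differences of -0.10 for cerebellum against cortex (standard error 0.175) and 0.03 for cerebellum against striatum (standard error 0.175, edgeR adjusted p = 0.881). Both were within their standard errors. In Mbd5+/GT mice the order was striatum, cerebellum, cortex, with -0.18 for cerebellum against striatum (standard error 0.148, edgeR adjusted p = 0.302) and 0.18 for cerebellum against cortex (standard error 0.148). The ends of that order, cortex against striatum, differed by -0.35 (standard error 0.148), and by -0.31 without the libraries low in their region's markers.

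For regions, a call required a log2 fold change of at least 1 in size besides the adjusted p, since many genes differed. In WT mice Hs6st3 was called for cortex against striatum, where 10.2% of genes were called. Its level was 2.06 through 8.00 to 14.0 CPM in cortex, 0.166 through 2.06 to 4.82 CPM in striatum and 0.129 through 0.931 to 3.15 CPM in cerebellum. The regions overlapped in every pair, and cortex was the highest on average. The log2 fold change was 1.66 for cortex against striatum (standard error 0.573, edgeR adjusted p = 0.0201) and -2.41 for cerebellum against cortex (standard error 0.593, adjusted p = 0.00123). In Mbd5+/GT mice the same contrasts were 1.52 and -2.43 and were called as well, where 6.24% and 23.7% of genes were called. With the mouse as a block, Hs6st3 was not called for cortex against striatum in WT mice (log2 fold change 1.44, adjusted p = 0.101). Without the libraries low in their region's markers that contrast was 1.29 (edgeR adjusted p = 0.0492, called).

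The N-deacetylase and N-sulfotransferase genes, which start the modification of the chain, had unlike patterns across regions, and Ndst3 was highest in cerebellum. Ndst3 was 26.8 through 35.7 to 56.9 CPM in WT cortex, 4.31 through 17.1 to 36.7 CPM in WT striatum and 65.6 through 160 to 196 CPM in WT cerebellum. Every WT cerebellum library lay above every library of the other regions. The log2 fold change was 1.98 for cerebellum against cortex (standard error 0.284, edgeR adjusted p = 1.88e-06) and 2.98 for cerebellum against striatum (standard error 0.296, adjusted p = 4.91e-09), and 2.08 and 2.96 in Mbd5+/GT mice. These were called, where 24.2% and 29.4% of genes were called in WT and 23.7% and 26.3% in Mbd5+/GT mice. In Mbd5+/GT mice cerebellum overlapped with cortex and striatum only through the library of mouse M755, low in cerebellar markers, at 22.8 CPM. The next lowest cerebellum library was at 106 CPM. Cortex against striatum was at the fold minimum for Ndst3, with 1.00 in WT mice (0.9969, adjusted p = 0.00541, not called), and 1.31 without the libraries low in their region's markers (adjusted p = 0.000337, called).

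Ndst4 went the other way. It was 0.942 through 27.2 to 63.4 CPM in WT cortex, 1.02 through 10.3 to 22.3 CPM in striatum and 0.841 through 2.02 to 20.4 CPM in cerebellum. The spread within a region exceeded 10-fold, and the regions overlapped. Cerebellum against cortex was called, at -2.23 in WT (standard error 0.761, edgeR adjusted p = 0.0153) and -2.57 in Mbd5+/GT mice (standard error 0.642, adjusted p = 0.000959), and cerebellum against striatum was not (-0.88 in WT, adjusted p = 0.3). Without the libraries low in their region's markers, cerebellum against cortex was -2.83 in WT and -3.49 in Mbd5+/GT mice. Ndst2 was 16.2 through 17.6 to 18.5 CPM in WT cortex, 17.5 through 19.3 to 21.3 CPM in striatum and 21.9 through 33.7 to 38.3 CPM in cerebellum, without overlap between cerebellum and the others. In Mbd5+/GT mice these regions overlapped only through the cerebellum library of mouse M755, low in cerebellar markers, at 18.1 CPM. The next lowest cerebellum library was at 32.8 CPM, and the highest of cortex and striatum were at 22.7 and 23.8 CPM. The Ndst2 log2 fold changes in WT mice were 0.88 and 0.72 for cerebellum against cortex and striatum. They passed the adjusted p (2.73e-09 and 6.6e-08 by edgeR) but not the fold minimum. The adjusted p alone was passed by 10864 and 12732 of 19219 genes. Without the libraries low in their region's markers the Ndst2 values were 0.95 and 0.82. The Ndst1 log2 fold change was -0.44 for cerebellum against cortex in WT mice (edgeR adjusted p = 0.0584) and -0.40 in Mbd5+/GT mice (adjusted p = 0.0361, under the fold minimum).

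Hs2st1 was highest in cortex. It was 63.9 through 74.4 to 89.0 CPM in WT cortex, 42.0 through 46.7 to 55.1 CPM in striatum and 40.3 through 46.0 to 51.4 CPM in cerebellum. No WT cortex library overlapped with the other regions. In Mbd5+/GT mice cortex did not overlap with cerebellum, and it overlapped with striatum only through the striatum library of mouse M756. That library, low in striatal markers, was at 67.0 CPM, the next striatum library was at 62.7 CPM and the lowest cortex library at 63.9 CPM. In WT mice the log2 difference was 0.62 for cortex against striatum (edgeR adjusted p = 2.38e-06) and -0.72 for cerebellum against cortex (adjusted p = 2.48e-09), both under the fold minimum. The adjusted p alone was passed by 9433 and 10864 of 19219 genes in these contrasts.

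Of the endosulfatases, Sulf2 was low in cerebellum and Sulf1 was not. Sulf2 was 70.5 through 84.5 to 123 CPM in WT cortex, 83.3 through 94.1 to 139 CPM in striatum and 20.4 through 28.2 to 81.3 CPM in cerebellum. All WT cerebellum libraries lay below every WT striatum library, and the 1 that reached the range of cortex was that of mouse M754, with Hox counts. The log2 fold change was -1.42 for cerebellum against cortex (standard error 0.214, edgeR adjusted p = 3.8e-06) and -1.57 for cerebellum against striatum (standard error 0.215, adjusted p = 7.92e-07), and -1.74 and -1.77 without the libraries low in their region's markers. Mbd5+/GT mice gave -1.42 and -1.53. Sulf2 shares 154 exon bases with Ncoa3 on the opposite strand, whose mean count was 1745, and the strand setting of the counts is not given in the sources used here, so some reads may be shared. Sulf1 was 32.5 ± 10.0, 29.7 ± 12.4 and 39.9 ± 11.2 CPM in WT cortex, striatum and cerebellum (SD, n = 8), and no contrast of it was called.

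Per library, the share of each member in its family of counts per kilobase was compared between regions of WT mice by two-sided exact permutation tests, 27 in all with Benjamini-Hochberg adjustment, where the smallest p that 8 against 8 allows is 0.00016. Of these, 15 had an adjusted p under 0.05, or 13 of 24 when Sulf2, whose share mirrors that of Sulf1, is left out. The shares of a family make up a whole in each library, so the tests within a family depend on each other. These counts include the Hs6st shares in pairs with cortex, which are descriptions. With values exchanged within mice only (the mouse as a block), 11 of the 24 passed. Ndst3 made up 48.2 ± 7.12% of the Ndst family in cerebellum (SD, n = 8), 18.3 ± 3.27% in cortex and 12.4 ± 6.42% in striatum, and Ndst1 26.0 ± 6.01%, 51.2 ± 5.94% and 52.3 ± 12.0%. Cerebellum exceeded cortex by 29.9 percentage points for Ndst3 (exact permutation adjusted p = 0.0014) and was lower by -25.1 points for Ndst1 (exact permutation adjusted p = 0.0014). By mean share, the leading N-sulfotransferase transcript was thus Ndst3 in cerebellum and Ndst1 in the other regions. Sulf1 took 40.3 ± 11.1% of the 2 sulfatases in cerebellum against 16.1 ± 5.77% in cortex and 13.6 ± 5.16% in striatum (exact permutation adjusted p = 0.0023 for both). In WT cerebellum the share ran from 31.1% through 49.8% to 54.5% for Ndst3 and from 14.0% through 44.5% to 48.3% for Sulf1. No share was computed without the libraries low in their region's markers.

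Of the 6-O-sulfotransferase counts in WT mice, Hs6st2 took 29.9 ± 6.84% (SD, n = 8) in cortex against 33.9 ± 6.14% in striatum and 33.6 ± 5.81% in cerebellum. Striatum against cerebellum did not pass the test (exact permutation adjusted p = 0.93), and the pairs with cortex, though among the 27, are descriptions. Hs6st3 took 19.4 ± 9.10% in cortex against 7.28 ± 5.12% in striatum and 4.39 ± 3.67% in cerebellum. The shares of Hs6st1 and Hs6st3 are taken over a sum that holds Hs6st2, so their pairs with cortex are descriptions too. In the Ndst family the mouse as a block ended the calls for 2 shares of cerebellum against cortex. These were Ndst4 (exact permutation adjusted p = 0.0069, and 0.0603 with the block) and Ndst2 (0.047, and 0.0703). The block added the Ndst3 share of cortex against striatum (0.062, and 0.0487) and the Ndst4 share of cerebellum against striatum (0.062, and 0.0352). In Mbd5+/GT cortex the Hs6st2 share ran from 20.8% through 24.4% to 39.6%, which is given without a test.

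**Figure D4:**
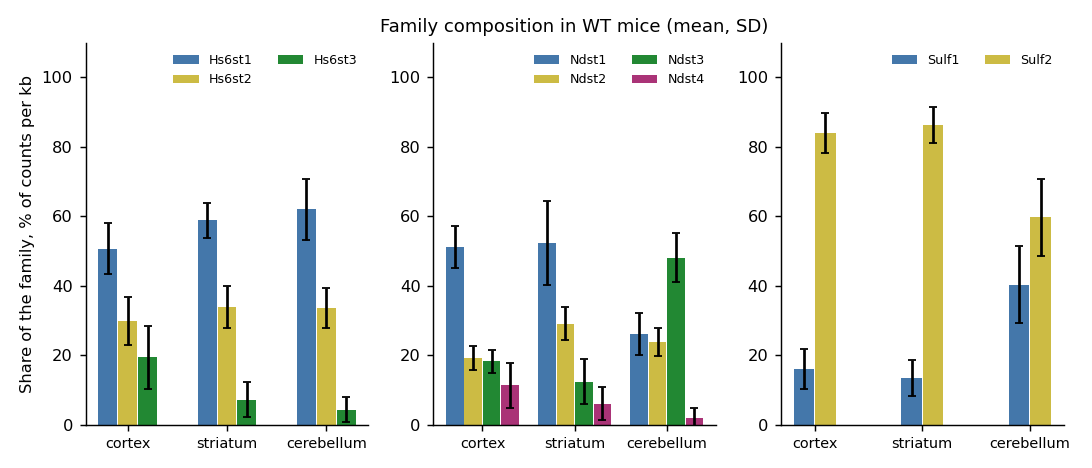
Share of each member in its family (vertical axis, % of counts per kb; mean, with SD as bars, 8 WT mice) in the 3 regions, for the 6-O-sulfotransferases, the N-deacetylase and N-sulfotransferases, and the endosulfatases. Ndst3 rises to 48.2% in cerebellum, and Hs6st2 stays between 29.9% and 33.9%.

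The rest of the pathway also differed between regions in WT mice, and the 3 genes with the largest change of each list are named. Over all genes 24.2% were called for cerebellum against cortex, 10.2% for cortex against striatum and 29.4% for cerebellum against striatum. The lists are short, and their counts are descriptions. Among the 3-O-sulfotransferases, 2 of 7 were called higher and 3 lower in cerebellum than in cortex, with Hs3st2 (-3.99), Hs3st4 (-3.99) and Hs3st3a1 (-1.81) the largest. Among the core proteins 3 of 13 were higher and 3 lower, led by Col18a1 (4.27) and Sdc1 (3.52), the collagen that yields endostatin and a syndecan, both higher, and Gpc5 (-1.77), a glypican, lower. Among the genes of linkage and chain synthesis 1 of 13 was higher and 2 lower, with Extl1 (-2.10), Pxylp1 (1.86) and Xylt1 (-1.29). Among the breakdown genes Hpse (-1.83), which encodes heparanase, and Ids (-1.21), which encodes iduronate sulfatase, were lower, 2 of the 9 tested. In the donor supply list 0 of 4 were called. Cortex against striatum gave 0 calls in the lists other than breakdown, where Hpse (1.73) and Ids (1.22) were higher and Arsg (-1.03) lower. Cerebellum against striatum gave 2 higher and 3 lower of 7 3-O-sulfotransferases, led by Hs3st4 (-4.46), Hs3st2 (-4.23) and Hs3st3a1 (-1.86), 3 higher and 2 lower of 13 core proteins, led by Col18a1 (3.70), Sdc1 (2.81) and Gpc6 (1.81), and 2 higher and 1 lower of 13 chain genes, with Pxylp1 (1.95) and Extl1 (-1.72) the largest and Extl2 also higher. Papss2 (-1.30), which makes the sulfate donor, was the single call of its list there.

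Because Hs6st2 is X-linked, the 10 females were compared with the 8 males. Hs6st2 was not called in any region. Females against males gave log2 fold changes of -0.20 (cortex, standard error 0.134, edgeR adjusted p = 0.784), 0.23 (striatum, standard error 0.114, adjusted p = 0.186) and 0.41 (cerebellum, standard error 0.189, adjusted p = 0.261). In cortex it ranged from 31.1 through 40.6 to 59.5 CPM in females and from 35.3 through 41.1 to 71.6 CPM in males. In cerebellum it ranged from 29.4 through 45.3 to 85.7 CPM in females and from 31.4 through 40.6 to 44.0 CPM in males. The difference in cerebellum was 0.17 (adjusted p = 0.597) without the 2 libraries low in cerebellar markers. The background of called genes was 0.0482% in cortex and 0.033% in cerebellum, and no member was called in these regions. Counted at an unadjusted p under 0.05, 4 of 10 members were higher in female cerebellum, where 12.2% of all genes were higher in females at that limit. Both libraries low in cerebellar markers were female and are part of that count. Without them 1264 of 17924 genes were higher in females at that limit, and the members were not counted again.

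In striatum 2 members were called by sex, where 8.84% of genes were called, 5.1% in the direction of females. Ndst4 ranged from 5.77 through 16.04 to 27.1 CPM in females and from 0.882 through 1.67 to 16.01 CPM in males, and its log2 fold change was 2.24 (standard error 0.594, edgeR adjusted p = 0.0294). Ndst3 ranged from 12.5 through 23.3 to 38.5 CPM in females and from 4.31 through 12.3 to 22.2 CPM in males, with a log2 fold change of 1.00 (standard error 0.291, edgeR adjusted p = 0.0413). The sexes overlapped for both. Striatal markers summed to 242 through 2322 to 4086 CPM in females and 1947 through 4245 to 7699 CPM in males, and all 5 libraries low in them were female. Without those 5 libraries the values were 1.90 for Ndst4 (adjusted p = 0.229) and 0.54 for Ndst3 (adjusted p = 0.383), and 1.9% of all genes were called. With litter as a term they were 3.68 (adjusted p = 0.107) and 1.44 (adjusted p = 0.163), where 0.0593% of genes were called, and within litter 3 they were 3.75 and 1.44. Both kept their direction and lost the call in each of these fits, and sex and litter are partly confounded, since litters 1 and 2 were of 1 sex each. Of the other pathway genes, 5 of 13 core proteins were called, all higher in female striatum, led by Gpc3 (1.42), Col18a1 (0.76) and Gpc5 (0.33). With litter as a term, within litter 3 or without the libraries low in striatal markers, 0 of the 13 were called, with values of 0.25 to 1.01, 0.25 to 0.92 and 0.22 to 0.80 for the same 5 genes. Markers of choroid plexus reached 4044 CPM in Mbd5+/GT and 6005 CPM in WT striatum, over group medians of 132 and 81.0 CPM, and their part in these values was not tested.

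**Figure D5:**
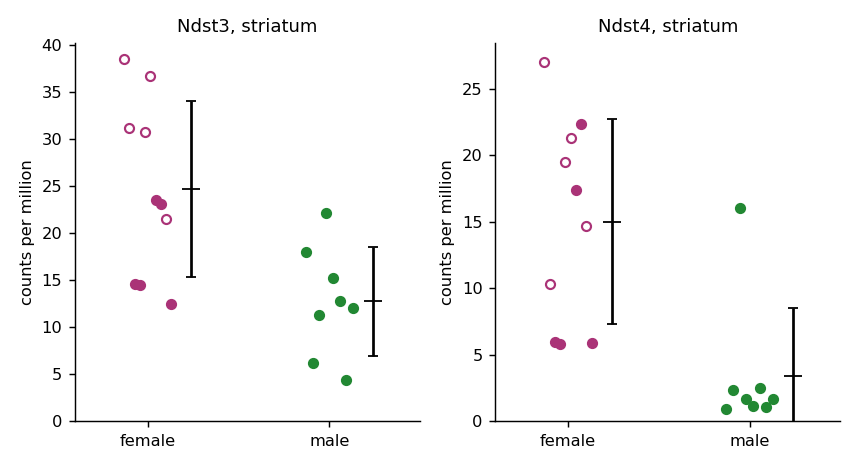
Ndst3 and Ndst4 levels (vertical axis, CPM) in the striatum libraries of 10 females and 8 males, with mean and SD beside each group. Open points are the 5 libraries low in striatal markers, all female, and 1 male library reaches 16.01 for Ndst4.

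The genes whose level was most like that of Hs6st2 over the 54 libraries, after centring each region on its mean, were Dsel (r = 0.896), Mum1l1 (0.863), Pcdh17 (0.857), Dzank1 (0.851) and Triqk (0.849), out of 11810 genes with a mean of at least 100 counts in every region. The median r over those genes was -0.029. Dsel is related to the epimerase of dermatan sulfate, another sulfated chain, and Pcdh17 is a protocadherin. For Dsel the r within a region was highest in cerebellum (0.953), followed by cortex (0.874) and striatum (0.870), over 18 libraries each. In cerebellum the 2 highest Hs6st2 levels, 78.6 and 85.7 CPM, were those of mice M754 and M755, whose libraries were low in cerebellar markers. No r was computed without these 2 libraries. Among the members, Ndst4 was the most like Hs6st2 (r = 0.632, Spearman's rho = 0.588), followed by Ndst1 (0.408 and 0.428). Hs2st1 (0.283 and 0.325) and Sulf1 (0.247 and 0.371) had weaker values, and Hs6st1 (-0.105 and -0.216) and Ndst2 (-0.439 and -0.185) were negative by both measures. For Sulf2 (0.322 and -0.011) and Ndst3 (-0.219 and 0.016) the measures differed, and Hs6st3 was below the count limit. The points share mice, litters and dissections, and these correlations are descriptions.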

How the data were processed

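RNA-seq libraries from cortex, striatum and cerebellum of 18 mice were analysed, 54 in all. The authors deposited raw counts of reads per gene, which STAR 2.4.2 produced on GRCm38 with the Ensembl 83 annotation after FastQC 0.10.1, per the submitters' notes and the study's methods. Reads that map to several places are not in the counts, and the strand setting of the counts is not given in the sources used here. The table holds 47069 genes and 92 spike-in rows, which were left out (0.0207 to 0.728% of reads). Libraries held 25295973 to 49027399 reads, and intervals cover the spread between mice, not counting error alone. No 2 libraries agreed within sampling noise: the lowest chi-square per gene over 219 replicate pairs was 8.26.

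Groups came from the sample labels. The names of the WT striatum libraries of males M751 and M752 mark them as repeats, and the sex comparison in striatum was not refitted without them. For genotype, genes were kept where at least 8 libraries exceeded 4 counts, and were tested in each region with edgeR 4.0.16 (R 4.3.3, TMM, quasi-likelihood test, Benjamini-Hochberg) and 4, 4 and 2 surrogate variables from sva 3.50.0 in cortex, striatum and cerebellum. Regions were compared within a genotype with a log2 fold minimum of 1, and sex within a region. Single values and family shares were tested by exact permutation (numpy 2.4.6), and Spearman's rho was computed with scipy 1.17.1. Levels per kilobase used merged exons of GENCODE vM21, which matched 46574 gene IDs. Scripts were tested on simulated data.

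The members, the lists and the tests were chosen with earlier results of these data known. The text names the 10 members, the 3 genes with the largest called change of each pathway list, and the 5 genes most like Hs6st2. Leaving out single libraries, the striatal marker covariate, the limit of 1000 CPM and the removal of libraries low in their region's markers were chosen after seeing the data. Libraries of different regions pair by mouse, since they come from the same animal: the median correlation of deviations was 0.178, 0.306 and 0.152 within mice for the 3 region pairs, against -0.022, -0.008 and -0.005 between mice. DESeq2 1.42.0, other size factors, filters and covariates and a block for the mouse were the alternatives. The values of 1 striatal marker are not reported here.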

Additional observations from a re-analysis of the deposited data

Results flagged for a closer look

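Of 60 groups of member levels, 7 held a library set apart from the rest by more than Dixon's 95% critical value, and chance flags about 1 in 20 groups. Of these, 4 were the cerebellum library of Mbd5+/GT mouse M755, the one with Hox counts of 583 CPM and few cerebellar markers. It had the highest Hs6st2 (85.7 CPM, next 52.9), Ndst4 (22.6, next 8.29) and Sulf2 (118, next 31.5), and the lowest Ndst2 (18.1, next 32.8). The WT cerebellum library of mouse M754 had the highest Sulf2, at 81.3 CPM against 36.7 for the next. The others were the striatum library of WT mouse M761 for Sulf2 (139 CPM, next 106), which was low in striatal markers, and the cortex library of Mbd5+/GT mouse M753 for Ndst4 (68.7 CPM, next 38.7), which was not low in cortical markers.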

How the results depend on the processing

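The count of members called between genotypes in cortex fell from 1 to 0 without surrogate variables, with 1 fewer, with covariates for litter and sex, with unfiltered counts, without litter 2, with the striatal covariate and without cortex libraries above 1000 CPM of striatal markers, and ranged from 0 to 1 when single libraries were left out. These calls are a description, since this contrast chose Hs6st2. For genotype in cortex, which is a description, 16 of 110 log2 fold changes of the members changed sign under other settings and 39 of 180 did with a library left out. In striatum and cerebellum the count was 0 throughout. By sex in striatum it fell from 2 to 0 with litter as a term, in litter 3 only and without the filter. It also fell to 0 there without the libraries low in their region's markers. By sex in cerebellum it rose from 0 to 1 with DESeq2 (Ndst4), which called 607 of 18160 genes there. For cortex against striatum in WT mice the count of members rose from 1 to 3 without the fold minimum, where 9433 of 19219 genes were called. It rose to 2 with DESeq2 (1996 of 19219 genes), with DESeq2 size factors (1952 of 19219) and without the low-marker libraries (1958 of 18915). In Mbd5+/GT mice it rose from 1 to 3 without the fold minimum (6965 of 19111 genes) or the low-marker libraries (1622 of 18818). With DESeq2 it rose to 2 (1206 of 19111). Without the fold minimum, cerebellum against cortex and striatum in Mbd5+/GT mice gave 7 and 4 in place of 4 and 2. Of all genes, 11645 and 12660 of 19111 were called in those 2 contrasts. Without the low-marker libraries, cerebellum against striatum in Mbd5+/GT mice gave 3 in place of 2, where 5560 of 18818 genes were called. The member added was Hs6st3 (log2 fold change -1.39, edgeR adjusted p = 0.0085). DESeq2 called 1 gene for a genotype effect that differed between cortex and striatum, where edgeR called 0. The cause of these shifts was not tested.

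With the mouse as replicate block, the paired fit called 2 members in place of 1 for cortex against striatum in Mbd5+/GT mice, adding Ndst4 (log2 fold change 2.16, edgeR adjusted p = 0.00765), and in WT mice lost Hs6st3 (1.44, adjusted p = 0.101) and gained Ndst3 (1.06, adjusted p = 0.00828). The family share tests passed 13 times in place of 15. Under the block the sign turned for Hs6st2 in WT cerebellum against striatum (-0.00), Sulf1 in Mbd5+/GT cortex against striatum (0.043) and Hs6st1 in Mbd5+/GT cerebellum against cortex (0.0077).

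Other log2 fold changes that turned sign were not called in either fit. For genotype these were, without surrogate variables, Ndst1 (0.090), Ndst2 (-0.029) and Sulf1 (0.062) in striatum and Hs6st3 (-0.28), Ndst1 (-0.031), Ndst3 (0.081) and Sulf1 (-0.035) in cerebellum. With 1 variable fewer they were Ndst2 (-0.049) in striatum and Hs6st3 (-0.26), Ndst1 (-0.025) and Sulf1 (-0.078) in cerebellum. With litter and sex they were Ndst1 (0.11), Ndst2 (-0.022) and Sulf1 (0.17) in striatum and Hs2st1 (0.0088) and Ndst3 (0.076) in cerebellum. Without litter 2 they were Hs6st3 (0.28), Ndst1 (0.37), Sulf1 (0.50) and Sulf2 (0.15) in striatum and Hs6st3 (-0.12) and Sulf1 (-0.008) in cerebellum. Without the 2 repeated libraries, those of WT striatum from males M751 and M752, they were Sulf1 (0.041) and Sulf2 (0.031) in striatum, and Hs6st2 (-0.0037) for WT cerebellum against striatum. For sex, litter as a term gave Hs6st3 (-0.49) in cortex, Ndst2 (-0.018), Sulf1 (-0.36) and Sulf2 (-0.13) in striatum and Hs2st1 (-0.061) and Sulf1 (-0.35) in cerebellum, and litter 3 only gave -0.47, -0.0085, -0.35, -0.15, -0.066 and -0.35 for the same genes.

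Without the libraries low in their region's markers, the genotype effect turned for Ndst2 (-0.0009) and Ndst3 (-0.055) in striatum and Hs6st3 (-0.0801), Ndst1 (-0.022) and Ndst3 (0.11) in cerebellum. The sex effect turned for Hs6st1 (0.057), Hs6st3 (0.31), Ndst2 (-0.072) and Sulf2 (-0.26) in striatum and Hs6st1 (-0.013) and Ndst3 (0.04) in cerebellum. In WT mice Hs6st1 (-0.0019) and Sulf1 (-0.028) turned for cortex against striatum and Hs6st1 (-0.054) and Hs6st2 (-0.17) for cerebellum against striatum. In Mbd5+/GT mice Hs6st1 (-0.033), Ndst2 (0.0001) and Sulf1 (0.061) turned for cortex against striatum and Hs6st1 (-0.069) for cerebellum against striatum. Without the filter Hs6st1 turned for cerebellum against cortex in Mbd5+/GT mice (0.039).

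Leaving out single libraries gave genotype effects in striatum of -0.014 to 0.042 for Ndst2, -1.04 to 0.30 for Ndst4, -0.37 to 0.028 for Sulf1 and -0.13 to 0.079 for Sulf2. In cerebellum they were -0.037 to 0.018 for Hs6st2, -0.042 to 0.24 for Hs6st3, -0.012 to 0.014 for Hs2st1, -0.029 to 0.076 for Ndst1, -0.046 to 0.11 for Ndst3 and -0.022 to 0.075 for Sulf1. Hs6st3 and Ndst4 were read at under 1 CPM in some libraries, which limits their precision.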
